A study of Mus musculus with 10 samples.

Results

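The HVEM network comprised 4 genes whose protein products bind each other: the ligand gene Tnfsf14, the receptor gene Tnfrsf14 and the inhibitory receptor genes Btla and Cd160. They were followed among 45321 genes in naive CD4 T cells, helper T cells before their encounter with antigen. The 4 genes were chosen by their measured levels in these libraries, since several of them lose their induction when Compound 10 is present, so their levels and changes are given as a description, with no p-value. All 4 passed the filter on low counts that left 14417 genes for testing.

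The cells were sorted as CD4+CD62L+CD69- cells from spleens of C57BL/6 mice and were pre-treated for 1 h with 12.5 µM Compound 10 or with its solvent DMSO, called vehicle here. They were then left unstimulated or given 10 nM PMA together with 1 µM ionomycin for 2 h, called stimulation here. The groups were Compound 10 stimulated (3 libraries), vehicle stimulated (2), Compound 10 unstimulated (2) and vehicle unstimulated (3). PMA, a phorbol ester, activates protein kinase C, and ionomycin lets calcium into the cell, so together they bypass the T cell receptor. Compound 10 is given in the series' design text as inhibiting the complex of the transcription factors NFAT and AP-1, which act together at shared sites after T cell activation. The labels do not say whether libraries came from separate mice, so SDs, SEs and p-values rest on the spread between libraries, which may be technical.

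HVEM, the product of Tnfrsf14, is a receptor of the TNF receptor superfamily that is bound on one face by LIGHT, the trimeric ligand made from Tnfsf14, and on another by the immunoglobulin-like receptors BTLA and CD160. Binding of LIGHT to HVEM costimulates T cells, whereas binding of HVEM to BTLA sends an inhibitory signal into the cell that carries BTLA, through tyrosine phosphatases. Resting T cells are known to carry HVEM, and LIGHT appears on them after activation.

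Libraries held 10694591 to 33486259 estimated counts. The summed level of 12 T cell identity genes was 2288 to 5618 CPM (counts relative to a scaled library total) in every library. That of 8 B cell genes was 4 to 8.88 CPM and that of 8 myeloid genes 20 to 58.2 CPM, mostly from Cst3 and Cd68. Of the CD8 genes, Cd8a did not exceed 0.177 CPM and Cd8b1 had 2.41 to 10.6 CPM. Cd4 had 154 to 294 CPM, above each of these, which fits the label of CD4 T cells. CPM values were scaled with TMM factors, which lay between 0.731 and 0.85 for the stimulated libraries and between 1.2 and 1.34 for the unstimulated ones. Without this scaling the median log2 fold change of all tested genes on stimulation moved to -0.60 with Compound 10 and to -0.83 under vehicle, against -0.01 and -0.06 with it, and the members' unscaled values are given where they change a direction.

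The promoter windows of the genes are shown because the compound is described as acting on NFAT and AP-1. Each window runs from 250 bases before to 50 bases after a RefSeq start (GRCm38.p6) and is written 5′ to 3′ on the gene's strand. Capitals mark the searched motifs on either strand, TGANTCA for AP-1 and GGAAA for the core that NFAT recognises, which also reads TTTCC on the other strand. The Tnfsf14 window is chr17:57194132-57194431 on the minus strand. Cd160 has 2 annotated starts, and the downstream window is chr3:96814472-96814771 and the upstream one chr3:96829302-96829601, both on the minus strand.
Tnfsf14: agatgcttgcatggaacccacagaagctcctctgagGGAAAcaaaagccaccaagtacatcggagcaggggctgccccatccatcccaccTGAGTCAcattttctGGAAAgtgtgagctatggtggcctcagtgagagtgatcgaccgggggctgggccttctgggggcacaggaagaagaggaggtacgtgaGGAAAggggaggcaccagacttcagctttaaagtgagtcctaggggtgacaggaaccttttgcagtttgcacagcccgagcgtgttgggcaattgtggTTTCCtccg
Cd160 downstream start: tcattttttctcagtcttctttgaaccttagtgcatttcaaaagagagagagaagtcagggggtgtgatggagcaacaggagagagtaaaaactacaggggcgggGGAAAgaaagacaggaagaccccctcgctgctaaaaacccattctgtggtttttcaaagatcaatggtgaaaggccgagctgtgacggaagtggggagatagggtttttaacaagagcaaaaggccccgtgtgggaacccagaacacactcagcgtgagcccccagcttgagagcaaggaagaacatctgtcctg
Cd160 upstream start: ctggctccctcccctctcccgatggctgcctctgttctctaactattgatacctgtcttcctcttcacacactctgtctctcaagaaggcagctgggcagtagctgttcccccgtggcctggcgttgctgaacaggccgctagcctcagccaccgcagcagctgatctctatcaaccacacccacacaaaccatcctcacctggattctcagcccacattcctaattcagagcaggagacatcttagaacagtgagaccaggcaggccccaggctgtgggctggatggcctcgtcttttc

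Tnfsf14 had 1 match to the AP-1 motif, 160 bases before its start, and 4 matches to the NFAT core. An NFAT core lay 8 bases after the AP-1 match, in the stretch TGAGTCACATTTTCTGGAAA. Of 32817 windows of the same length, 7.81% held the AP-1 motif, 61.3% held the NFAT core, 1.11% held both within 20 bases of each other and 2.64% held the NFAT core at least 4 times. The downstream Cd160 window held 1 NFAT core and the upstream window none of either motif. The Btla window (chr16:45224087-45224386, plus strand) held neither motif, and the Tnfrsf14 window (chr4:154928028-154928327, minus strand) held 2 NFAT cores and no AP-1 match. Other annotated transcripts of Tnfrsf14 start at chr4:154928552 and chr4:154928563, upstream of this window. The sequence around those starts was not searched, so the missing AP-1 match holds for this window only. The motifs do not overlap each other. These are letter matches in short windows, and binding of either factor was not measured.

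Tnfsf14 (chr17:57189492-57194177, minus strand, mm10), the gene of the ligand LIGHT, had the largest fold change of the 4 genes on stimulation under vehicle, over a resting level of 3 counts. It had 1.33, 2.14 and 2.92 CPM in the Compound 10 stimulated libraries, against 16.9 and 19.3 CPM in the vehicle stimulated libraries. It had 0.319 and 0.301 CPM in the Compound 10 unstimulated libraries, against 0.0548, 0.0932 and 0 CPM in the vehicle unstimulated libraries. No pair of groups overlapped: the vehicle stimulated libraries were highest, and the vehicle unstimulated libraries held 3 estimated counts between them. Because of those few counts the ratio of vehicle stimulated to vehicle unstimulated cells, 456 from 354 and 3 counts scaled by library size, had a 95% interval of 155 to 2219 from counting error alone. With Compound 10 the stimulated cells were 7.14 times the unstimulated ones (70 and 17 counts, interval 4.15 to 12.9). In stimulated cells the level with Compound 10 was 11.8% of the vehicle level, a log2 fold change of -3.07 ± 0.43 (SE), and in unstimulated cells it was 7.62 times the vehicle level (17 and 3 counts, interval 2.2 to 40.6). These intervals cover counting error only.

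Tnfrsf14 (chr4:154921933-154928563, minus strand), the gene of the receptor HVEM, did not share this pattern. It had 2.21, 2.4 and 0.708 CPM in the Compound 10 stimulated libraries, against 4.38 and 1.64 CPM in the vehicle stimulated libraries. It had 1.28 and 0.301 CPM in the Compound 10 unstimulated libraries, against 1.92, 3.22 and 2.04 CPM in the vehicle unstimulated libraries. The groups overlapped in each comparison except between Compound 10 and vehicle in unstimulated cells, where both Compound 10 libraries were below all 3 vehicle libraries in CPM, though not in TPM. Each library held 8 to 71 estimated counts, and the SDs reached 1.93 CPM on a mean of 3.01 CPM in vehicle stimulated cells. The log2 fold change was -0.74 ± 0.68 (SE) for Compound 10 in stimulated cells and -1.70 ± 0.72 in unstimulated cells. Tnfrsf14 was called in no comparison. By counting error alone, its level with Compound 10 was 0.637 times the vehicle level in stimulated cells (56 and 53 counts scaled by library size, 95% interval 0.43 to 0.946) and 0.246 times it in unstimulated cells (32 and 175 counts, 0.163 to 0.36), and these intervals leave out the spread between libraries. Its stimulation value under vehicle, 0.31 ± 0.66 with scaling, was -0.49 without it.

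Btla (chr16:45224315-45257670, plus strand), the gene of the inhibitory receptor BTLA, was the most abundant of the 3 induced genes. It had 32.7, 56.3 and 38 CPM in the Compound 10 stimulated libraries, against 141 and 142 CPM in the vehicle stimulated libraries. It had 27.3 and 16.6 CPM in the Compound 10 unstimulated libraries, against 7.72, 8.39 and 4.82 CPM in the vehicle unstimulated libraries. The 4 groups did not overlap in CPM, and Compound 10 had opposite directions in the 2 states: below vehicle in stimulated cells and above it in unstimulated cells. The log2 fold change for Compound 10 was -1.74 ± 0.29 (SE) in stimulated and 1.65 ± 0.30 in unstimulated cells. Stimulation gave 0.96 ± 0.30 with Compound 10 and 4.35 ± 0.31 under vehicle. The value with Compound 10 was the less firm of these, since the call was lost in 5 of the 10 fits that left out a library (Compound 10 unstimulated replicate 2, either vehicle stimulated one, or Compound 10 stimulated replicate 2 or 3; log2 0.61 to 1.35 over all 10), it was 0.37 without scaling, and in TPM the Compound 10 stimulated libraries (10.8, 20.4 and 12.3) overlapped the Compound 10 unstimulated ones (14.7 and 7.91).

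Cd160 (chr3:96798763-96829351, minus strand), the gene of a glycolipid-anchored receptor best known on natural killer and CD8 T cells, was near its resting level in stimulated cells that had received the compound. It had 0.884, 1.11 and 0.884 CPM in the Compound 10 stimulated libraries, against 16.4 and 17.4 CPM in the vehicle stimulated libraries. It had 0.511 and 0.929 CPM in the Compound 10 unstimulated libraries, against 0.657, 0.839 and 1 CPM in the vehicle unstimulated libraries. The vehicle stimulated libraries stood apart, and in CPM the Compound 10 stimulated libraries overlapped each unstimulated group. In TPM, which allows for transcript length, the Compound 10 stimulated libraries (0.97, 0.928 and 0.762) lay above the Compound 10 unstimulated ones (0.571 and 0.58) and overlapped the vehicle unstimulated ones (0.497, 0.665 and 0.785). The log2 fold change was -4.12 ± 0.35 (SE) for Compound 10 in stimulated cells and -0.17 ± 0.36 in unstimulated cells. Stimulation gave 0.36 ± 0.38 with Compound 10, which was -0.21 without scaling, and 4.31 ± 0.34 under vehicle. The deposited values come from bulk RNA, in which a change in the number of cells that make a transcript and a change in RNA per cell cannot be told apart, for Cd160 as for the other genes.

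The CD4+CD62L+CD69- sort is meant to leave out natural killer and CD8 T cells, the cells best known for Cd160. Some of their markers had counts in every library. In vehicle stimulated cells, where Cd160 averaged 16.9 CPM, the natural killer sum and Cd8b1 had their highest values too, but several single markers did not. The natural killer sums of the stimulated groups also overlapped. Of 10 natural killer cell genes, Ncr1, Klra4 and Klra8 had no counts in any library, and the summed level was 5.83 to 9.62 CPM in Compound 10 stimulated, 8.37 to 17.1 in vehicle stimulated, 3.26 to 4.22 in Compound 10 unstimulated and 1.78 to 3.87 in vehicle unstimulated libraries. Eomes and Prf1, which T cells can also express, made up most of this sum. Klrb1c, Klrk1 and Gzma averaged 0 CPM in vehicle stimulated cells, against 0.539, 0.0286 and 0.124 CPM in Compound 10 stimulated cells. Klre1 had 0.0866 CPM in vehicle stimulated and 0.117 CPM in Compound 10 stimulated cells, whereas Gzmb had 0.692 and 0.0884 CPM. Cd8a had 0.0866 CPM in vehicle stimulated and 0.0875 CPM in Compound 10 stimulated cells. Cd8b1 averaged 5.02 CPM in Compound 10 stimulated and 10.4 CPM in vehicle stimulated cells, and 4.11 and 5.28 CPM in Compound 10 unstimulated and vehicle unstimulated cells. The part of these cells in the level of Cd160 was not tested.

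BTLA is also carried by follicular helper T cells, for which 6 genes summed to 428 to 652 CPM in Compound 10 stimulated, 399 to 468 in vehicle stimulated, 293 to 484 in Compound 10 unstimulated and 124 to 218 in vehicle unstimulated libraries. Its genes did not move together. Bcl6, the largest part outside vehicle stimulated cells, averaged 363 CPM in Compound 10 stimulated and 175 CPM in vehicle stimulated cells. In Compound 10 unstimulated and vehicle unstimulated cells it averaged 309 and 95.5 CPM. Cxcr5 and Sh2d1a were also higher with Compound 10 in stimulated cells. Il21 and the activation genes Icos (111 against 196 CPM) and Pdcd1 (25.6 against 51.6 CPM) were lower there. The 6 regulatory T cell genes summed to 82.5 to 118 CPM in Compound 10 stimulated, 203 to 250 in vehicle stimulated, 69.2 to 70.6 in Compound 10 unstimulated and 53.5 to 62.8 in vehicle unstimulated libraries, mostly through the activation gene Il2ra in the stimulated vehicle cells. Foxp3, which defines regulatory T cells, averaged 3.34 CPM in Compound 10 stimulated and 5.8 CPM in vehicle stimulated cells. The part of either cell type in the levels of Btla was not tested.

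**Figure D1:**
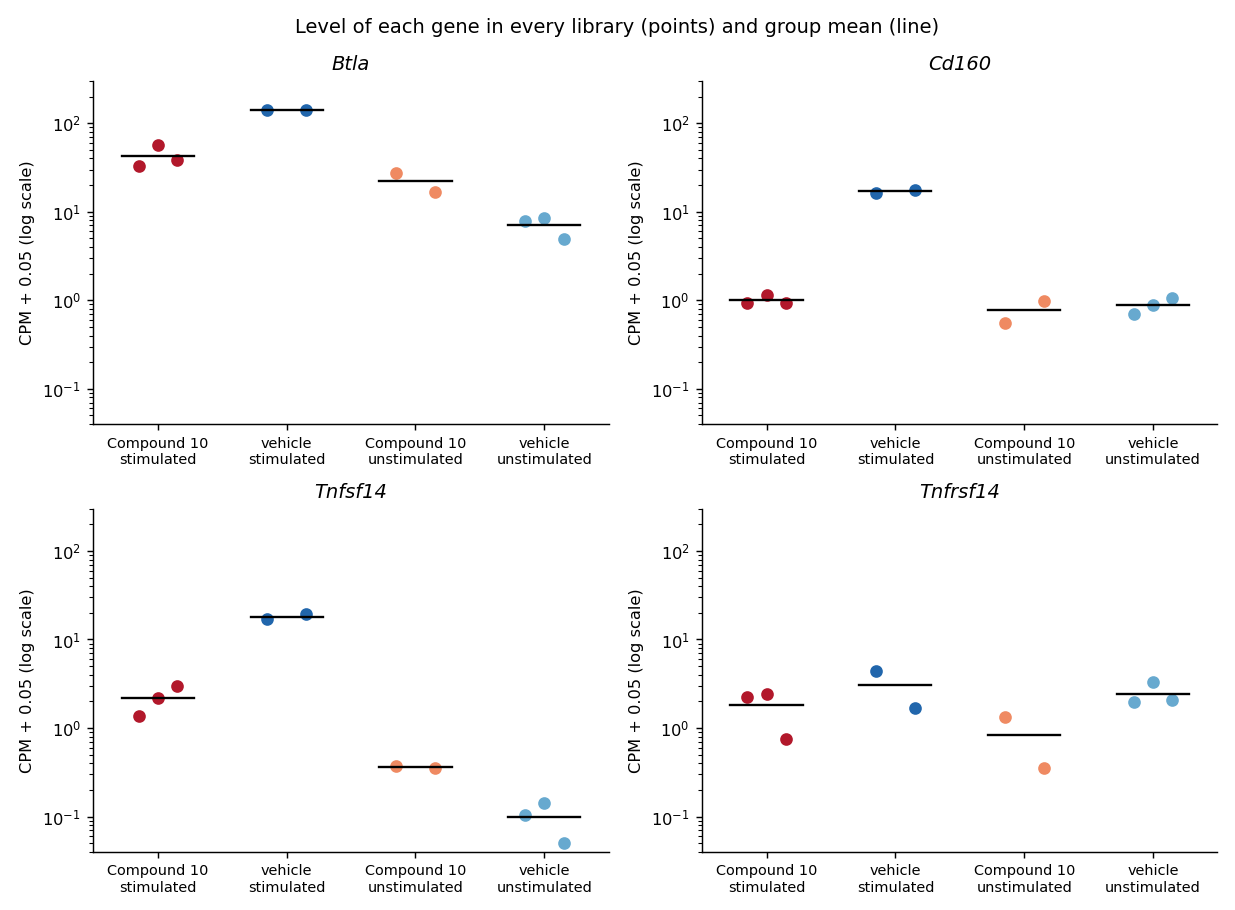
CPM of Btla, Cd160, Tnfsf14 and Tnfrsf14 in each of the 10 libraries (points) with group means (lines), on a log axis after adding 0.05. The vehicle stimulated libraries are highest for Btla (141 and 142 CPM), Cd160 (16.4 and 17.4 CPM) and Tnfsf14 (16.9 and 19.3 CPM), whereas those of Tnfrsf14 (4.38 and 1.64 CPM) overlap the Compound 10 stimulated and the vehicle unstimulated libraries.

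Of the 3 induced genes, Cd160 kept the smallest share of its induction with Compound 10, and the order of Btla and Tnfsf14 depended on the scaling. For Btla the stimulated mean exceeded the unstimulated mean by 20.4 CPM with Compound 10 and by 135 CPM under vehicle, so that 15.2% of the vehicle gain was left. For Tnfsf14 the gains were 1.82 CPM with Compound 10 and 18 CPM under vehicle (10.1% left), and for Cd160 they were 0.241 and 16 CPM (1.5% left). In alternatives chosen after seeing the data, leaving out each library in turn gave 9.99 to 19.1% for Btla, 7.9 to 12.3% for Tnfsf14 and 0.2 to 2.81% for Cd160. Without TMM scaling the shares were 7.9% for Btla, 10% for Tnfsf14 and -0.782% for Cd160, whose mean was then lower after stimulation with Compound 10. Btla differed between the treatments before stimulation too, with an unstimulated level of 21.9 ± 7.53 CPM with Compound 10 (SD, n = 2) and of 6.98 ± 1.9 CPM under vehicle (SD, n = 3). Its level in stimulated cells with Compound 10 was 29.9% of the vehicle level, that of Tnfsf14 was 11.8% and that of Cd160 was 5.69%.

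Counts of called genes give the background for these values, where called means an adjusted p under 0.05 in edgeR's quasi-likelihood test over all tested genes. On stimulation 2 of the 4 members were called higher with Compound 10 (Btla and Tnfsf14), when 12.8% of all tested genes were, and 3 under vehicle (all but Tnfrsf14), when 19.5% were. With Compound 10 against vehicle, 3 members were called lower in stimulated cells, when 12.8% of tested genes were. In unstimulated cells 2 members were called higher (Btla and Tnfsf14), when 4.65% were. In the difference between the 2 stimulation responses, called the interaction here, 3 members were called lower, when 4.08% were. Since the loss of induction chose the genes and every one of these comparisons holds levels that enter it, nothing is read from the counts.

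The interaction was -3.39 ± 0.41 on the log2 scale (SE) for Btla, -3.95 ± 0.50 for Cd160, -5.78 ± 0.85 for Tnfsf14 and 0.95 ± 0.98 for Tnfrsf14. Among the 14417 tested genes 28 had a lower interaction value than Tnfsf14, 57 a lower one than Cd160 and 77 a lower one than Btla, whereas 12400 were lower than Tnfrsf14. For Compound 10 in stimulated cells, 36 genes had a lower log2 fold change than Cd160, 69 than Tnfsf14 and 381 than Btla. For stimulation under vehicle, 12 genes had a higher value than Tnfsf14, and 140 and 146 had higher values than Btla and Cd160. The call of Tnfsf14 in unstimulated cells rested on few counts and was kept in 2 of the 10 fits that left out a library, with log2 values of 1.93 to 3.57. It was kept without Compound 10 stimulated replicate 1 or 3. For Btla in unstimulated cells the fits that left out a library gave log2 values of 1.26 to 1.98, the lowest without Compound 10 unstimulated replicate 1. Calls of the members are no test of them, since the genes were chosen by these same levels.

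**Figure D2:**
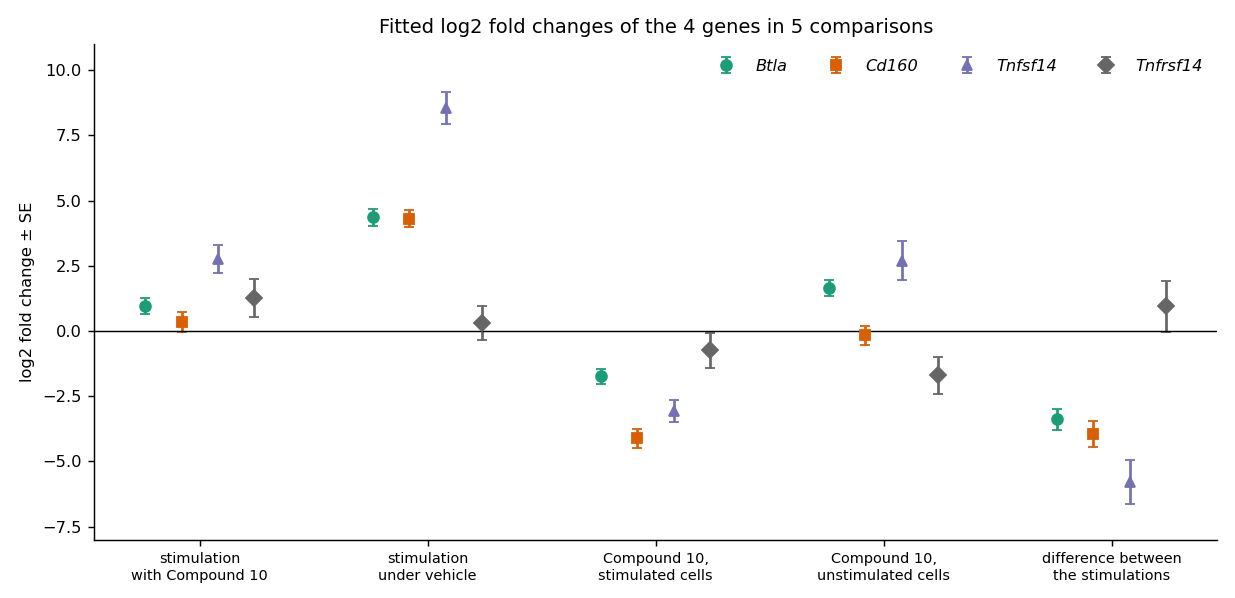
Log2 fold change of the 4 genes, with its SE as error bar, for stimulation with Compound 10 and under vehicle, for Compound 10 over vehicle in each state of the cells, and for the interaction. Btla and Tnfsf14 lie below 0 in stimulated cells (-1.74 and -3.07) and above 0 in unstimulated cells (1.65 and 2.70), and Cd160 lies below 0 in stimulated cells only (-4.12, against -0.17).

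**Figure D3:**
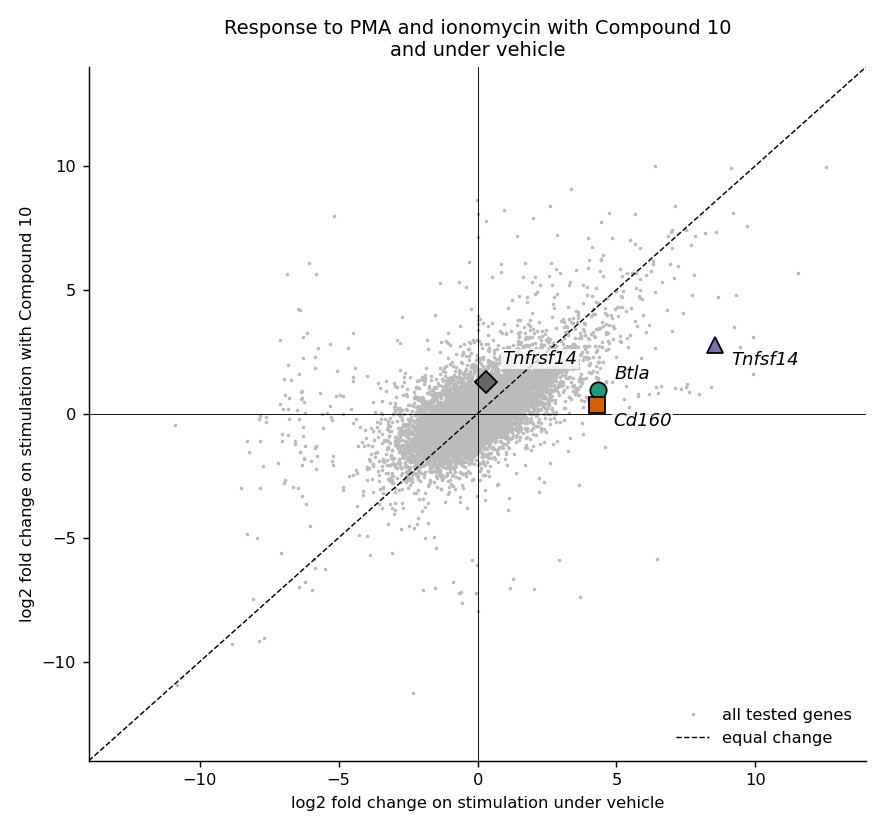
Log2 fold change on stimulation with Compound 10 (vertical) against that under vehicle (horizontal) for 14417 tested genes (grey), with the 4 genes marked and the line of equal change dashed. The 2 axes share no library. Btla, Cd160 and Tnfsf14 lie below the line, at 0.96, 0.36 and 2.77 with Compound 10 and 4.35, 4.31 and 8.55 under vehicle, and Tnfrsf14 lies at 1.26 and 0.31.

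Sample index numbers in the file names were grouped into 3 runs of nearby numbers (13, 15 and 16, then 19 to 22, then 25, 26 and 29). Placing index 29, which is Compound 10 stimulated replicate 3, in the third run was a choice. What the runs stand for is not stated in the labels. Within the runs that held both groups, the log2 difference of Compound 10 from vehicle in stimulated cells (log2 CPM with a prior count of 2) was -2.10 and -1.33 for Btla, -4.05 and -3.84 for Cd160 and -3.56 and -3.11 for Tnfsf14. Tnfrsf14 changed sign between the runs, with -0.95 and 0.52. In unstimulated cells the within-run differences were 1.69 and 1.76 for Btla, 1.08 and 1.90 for Tnfsf14, -0.61 and -0.10 for Cd160 and -1.26 and -2.38 for Tnfrsf14.

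Levels were compared between the genes as TPM, which allows for transcript length. In Compound 10 stimulated cells Btla was highest at 14.5 ± 5.17 TPM, followed by Tnfrsf14 at 3.24 ± 1.88, Tnfsf14 at 1.33 ± 0.476 and Cd160 at 0.887 ± 0.11 (SD, n = 3), and each of the last 3 overlapped its neighbour in this order. In vehicle stimulated cells the order was Btla at 45 ± 1.6 TPM, Cd160 at 16.8 ± 0.835, Tnfsf14 at 10.6 ± 1.34 and Tnfrsf14 at 7.12 ± 6.16 (SD, n = 2), of which the last 2 overlapped. In Compound 10 unstimulated cells Btla had 11.3 ± 4.8 TPM, Tnfrsf14 3.48 ± 3.47, Cd160 0.575 ± 0.00643 and Tnfsf14 0.29 ± 0.0372 (SD, n = 2), with no overlap between neighbours. In vehicle unstimulated cells Tnfrsf14 stood first at 7.29 ± 2.39 TPM, followed by Btla at 3.89 ± 1.33, which overlapped it, Cd160 at 0.649 ± 0.144 and Tnfsf14 at 0.0524 ± 0.0505 (SD, n = 3). In counts Btla was above Tnfrsf14 in vehicle unstimulated cells (489 and 175), so their order there rests on the length correction. For Tnfrsf14 that correction depends on how few reads were shared among transcripts of 394 to 1018 bases. In TPM the receptor gene was thus above the ligand gene in unstimulated vehicle cells. It was not separable from the ligand gene in TPM in stimulated vehicle cells, where it had 53 counts against 354.

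Of the 3 annotated transcripts of Cd160, 1 starts 14830 bases downstream of the start that the other two share. The downstream transcript took 68.6% of the Cd160 counts in Compound 10 stimulated cells (21.3 of 31, exact Clopper-Pearson 95% interval for counting error 48.6 to 83.3%) and 89.6% in vehicle stimulated cells (294 of 328, 85.8 to 92.7%). It took 6.95% in Compound 10 unstimulated cells (3.13 of 45, 1.4 to 18.3%) and 7.77% in vehicle unstimulated cells (5.05 of 65, 2.54 to 17%). In single libraries the share was 100, 50 and 67.5% in Compound 10 stimulated, 93.1 and 87.3% in vehicle stimulated, 39.1 and 0% in Compound 10 unstimulated and 0, 0 and 14.4% in vehicle unstimulated cells, so each unstimulated group's share came from 1 library. Since the downstream transcript held most of the gene's counts in vehicle stimulated cells, its values below describe the same loss of induction by which the gene was chosen.

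By level, the downstream transcript averaged 0.68 ± 0.178 CPM in Compound 10 stimulated and 15.2 ± 0.0242 CPM in vehicle stimulated cells. It averaged 0.0999 ± 0.141 CPM in Compound 10 unstimulated and 0.0483 ± 0.0837 CPM in vehicle unstimulated cells. In single libraries it had 0.884, 0.557 and 0.597 CPM with Compound 10 and stimulation, and the highest unstimulated library had 0.2 CPM. The downstream transcript was therefore above every unstimulated library in all 3 Compound 10 stimulated libraries, although the gene's total in CPM overlapped. The upstream transcripts together averaged 0.281 ± 0.278 CPM in Compound 10 stimulated and 1.66 ± 0.762 CPM in vehicle stimulated cells, and 0.62 ± 0.437 and 0.785 ± 0.111 CPM in Compound 10 unstimulated and vehicle unstimulated cells.

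The assignment of reads to these transcripts has 2 possible handles. The downstream transcript has its own first exon of 52 bases, against 129 bases upstream, and its last exon is annotated as 465 bases, against 1857 bases in the others, 1392 bases longer. The estimate can rest on either end, and which of them carried the reads cannot be told from the deposited tables. The upstream start overlaps the body of Pdzk1 on the opposite strand, which had 0 to 2 counts per library.

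**Figure D4:**
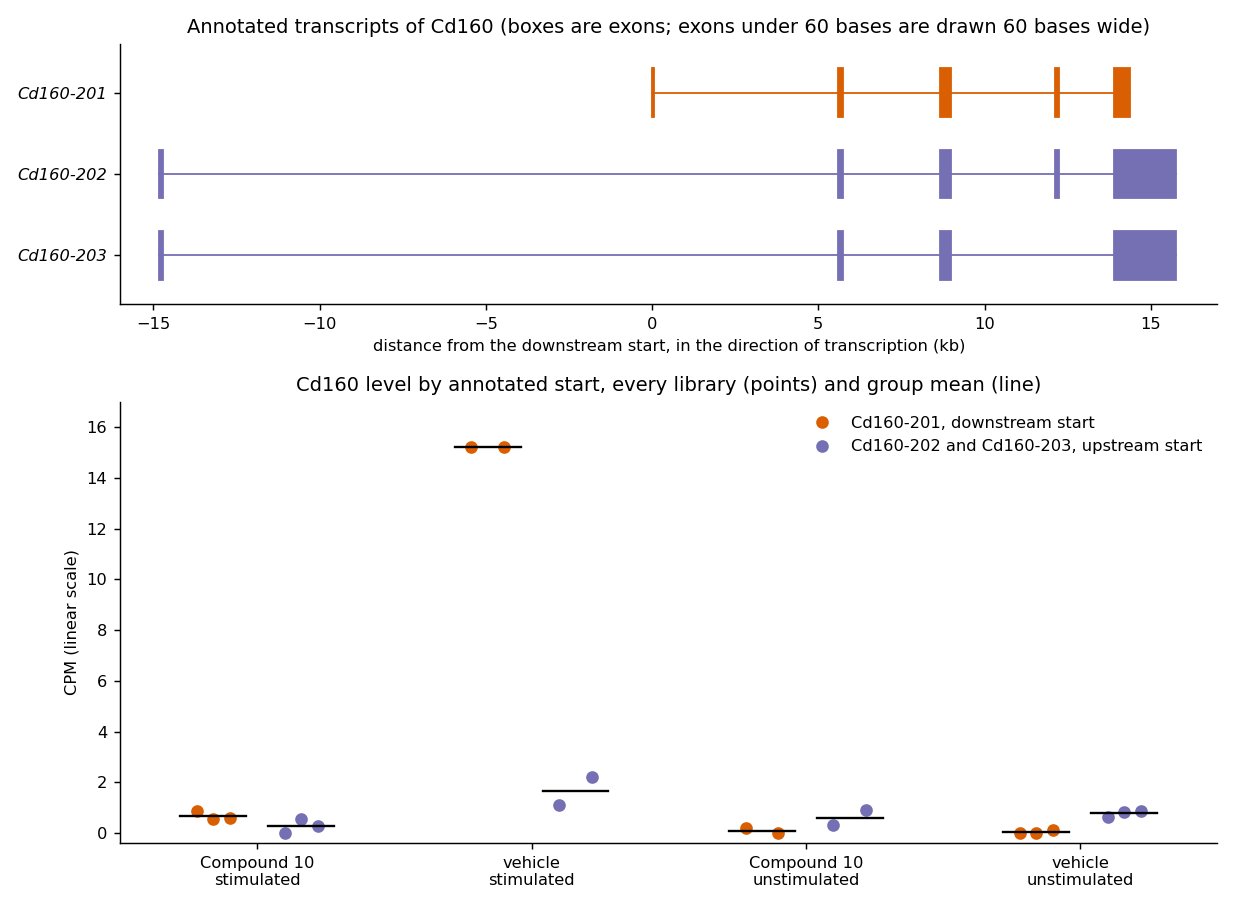
Top, exons of the 3 annotated Cd160 transcripts by distance in kb from the downstream start. Bottom, CPM on a linear axis of the transcript from the downstream start and of the 2 from the upstream start, in every library (points) with group means (lines); the downstream transcript stands at 15.2 CPM in vehicle stimulated cells and at 0.68 CPM in Compound 10 stimulated cells.

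The other members gave less at the level of transcripts. Tnfsf14 has 1 annotated transcript. The Btla transcript of 3251 bases took 75.2% of the gene's counts in Compound 10 stimulated, 65.8% in vehicle stimulated, 50.3% in Compound 10 unstimulated and 23.9% in vehicle unstimulated cells, but the length given in the tables for the other transcript is 3235 bases and that in GENCODE M21 is 1598 bases, so the authors used another annotation for it and its identity is uncertain. Its share also ranged from near 0 to 53.1% among the 3 vehicle unstimulated libraries. The 4 transcripts of Tnfrsf14 shared too few counts for a statement.

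Genes around the members showed no common direction. Of 23 protein-coding genes within 100 kb of a member, 16 were tested, and with Compound 10 in stimulated cells 3 were called higher and 1 lower, when 10.4% and 12.8% of all tested genes were. At 65609 bases from Btla, Slc35a5, a nucleotide-sugar transporter gene, was higher with Compound 10, at 20.9 ± 1.68 CPM against 6.92 ± 1.96 CPM under vehicle (log2 1.58, edgeR adjusted p = 0.000993), the opposite direction to Btla. Atg3, which lies between them at 35777 bases from Btla, had 303 ± 46.4 CPM with Compound 10 and 237 ± 2.99 CPM under vehicle (log2 0.36, edgeR adjusted p = 0.23). Gpr108 near Tnfsf14 (0.85, adjusted p = 0.0148) and Pias3 near Cd160 (1.31, adjusted p = 0.0271) were higher too, and Pank4 near Tnfrsf14, a pantothenate kinase family gene, was lower (-0.74, adjusted p = 0.0133), all by edgeR. The calls of Gpr108, Pias3 and Pank4 were lost in 1, 3 and 2 of the 10 fits that left out a library, with adjusted p in edgeR of up to 0.171, 0.158 and 0.156. The libraries were vehicle stimulated replicate 1 for Gpr108, either vehicle stimulated one or Compound 10 stimulated replicate 3 for Pias3, and vehicle stimulated replicate 2 or Compound 10 stimulated replicate 1 for Pank4.

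Other partners of LIGHT and HVEM were looked at as a list of 6 genes, of which 4 were tested. Ltb, which encodes the membrane-bound subunit of lymphotoxin, was lower with Compound 10 in stimulated cells, at 214 ± 52.1 CPM against 614 ± 36.1 CPM under vehicle (log2 -1.52, edgeR adjusted p = 0.00232). Lta, whose product binds HVEM and forms lymphotoxin with that of Ltb, had 98.9 ± 18.6 CPM with Compound 10 and 79.8 ± 8.13 CPM under vehicle (log2 0.31, adjusted p = 0.311 in edgeR). The tumour necrosis factor receptor genes Tnfrsf1a and Tnfrsf1b had log2 values of -0.06 and -0.20 (edgeR adjusted p = 0.899 and 0.631). Ltbr, the other receptor of LIGHT, and Lrfn5 were not tested, and Ltbr had 1 count in all libraries together.

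Below HVEM, 14 genes of TRAF adaptors and NF-kB signalling were tested. With Compound 10 in stimulated cells 4 were called higher and 3 lower, when 10.4% and 12.8% of all tested genes were, with a median log2 fold change of 0.20, against 0.04 for all tested genes. Birc3, which encodes a ubiquitin ligase bound by TRAF2, was higher, at 524 ± 3.25 CPM against 237 ± 12 CPM under vehicle (log2 1.15, edgeR adjusted p = 0.000315), as was the kinase gene Ikbkb (0.75, adjusted p = 0.00489). The NF-kB subunit genes Nfkb1 and Rela were lower (-1.47, edgeR adjusted p = 0.000761, and -1.23, adjusted p = 0.000688). A list of 9 genes linked to BTLA signalling also held genes of T cell receptor signalling (Cd247, Lck, Zap70 and Fyn), so it is not specific to BTLA. With Compound 10 in stimulated cells 1 of the 9 was called higher and 4 lower, when 10.4% and 12.8% of all tested genes were (median -0.43). Fyn (-0.87), Zap70 (-0.70) and Pik3ca (-0.83) were among those lower and Pik3r1 (0.78) was higher. Their edgeR adjusted p were 0.0026, 0.00689, 0.0111 and 0.00536 in that order. The calls of Ikbkb, Zap70 and Pik3ca were lost without either vehicle stimulated library (edgeR adjusted p up to 0.0565, 0.0657 and 0.0949), and that of Pik3r1 without vehicle stimulated replicate 2 (0.0777). Ptpn6 and Ptpn11, the phosphatases recruited by BTLA, were called in neither direction.

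Most other inhibitory receptor genes of T cells were not called. Of 12 tested, 2 were called lower with Compound 10 in stimulated cells and none higher, when 12.8% and 10.4% of all tested genes were, with a median log2 fold change of 0.03. They were Vsir, which encodes the checkpoint protein VISTA, at 346 ± 78.4 CPM against 1480 ± 88.2 CPM under vehicle (log2 -2.10, edgeR adjusted p = 0.000171), and Pdcd1, which encodes PD-1, at 25.6 ± 10.2 CPM against 51.6 ± 2.83 CPM (log2 -1.01, edgeR adjusted p = 0.0253). The call of Pdcd1 was lost without either vehicle stimulated library and without Compound 10 stimulated replicate 1 or 2 (edgeR adjusted p up to 0.147). Tigit and Cd200 had log2 values of -0.77 and -0.89 (edgeR adjusted p = 0.0606 and 0.126).

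In unstimulated cells 2 inhibitory receptor genes were called higher with Compound 10, when 4.65% of all tested genes were. Cd5, named after its value was seen, had 160 ± 52.4 CPM with Compound 10 and 46 ± 9.21 CPM under vehicle (log2 1.80, edgeR adjusted p = 0.001), the same direction as Btla. Cd96, also named after its value was seen, had 58.8 ± 2.44 CPM and 34.6 ± 3.95 CPM (log2 0.77, edgeR adjusted p = 0.0254), a call lost without vehicle unstimulated replicate 1 or 2 and without either Compound 10 unstimulated library (adjusted p up to 0.0984). CD5 is an inhibitory receptor of thymocytes and T cells whose level follows signalling through the T cell receptor.

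Among other TNF receptor superfamily genes 11 were tested, and with Compound 10 in stimulated cells 1 was called higher and 1 lower, when 10.4% and 12.8% of all tested genes were (median log2 fold change -0.45). Tnfrsf9, the gene of the costimulatory receptor 4-1BB, was lower, at 23.9 ± 2.19 CPM against 81.4 ± 2.18 CPM under vehicle (log2 -1.77, edgeR adjusted p = 0.000141). Cd40 was higher, at 4.70 CPM against 1.27 CPM (log2 1.89, edgeR adjusted p = 0.0119), and lost its call without either vehicle stimulated library (adjusted p up to 0.107). Tnfrsf25 and Tnfrsf13c had values of -0.53 and -0.78 (edgeR adjusted p = 0.0741 and 0.0807). In unstimulated cells 2 of the 11 were called higher with Compound 10, when 4.65% of all tested genes were. They were Tnfrsf9 (log2 0.87, edgeR adjusted p = 0.0274) and Fas (0.86, adjusted p = 0.0357), the latter named after its value was seen. These calls were lost in 5 and 8 of the 10 fits that left out a library.

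Among 10 tested genes of other TNF superfamily ligands, which include Lta and Ltb, 1 was called higher and 2 lower, when 10.4% and 12.8% of all tested genes were (median log2 fold change -0.20). Fasl, the ligand of the death receptor Fas, was lower, at 71.4 ± 8.49 CPM with Compound 10 against 168 ± 32.4 CPM under vehicle (log2 -1.24, edgeR adjusted p = 0.000592). Tnf was higher (log2 0.94, edgeR adjusted p = 0.0199), a call lost without either vehicle stimulated library or without Compound 10 stimulated replicate 1 (adjusted p up to 0.157), and Tnfsf8, the CD30 ligand, had -0.65 (adjusted p = 0.0725). In unstimulated cells 3 ligand genes were called higher with Compound 10, when 4.65% of all tested genes were: Lta (0.90, edgeR adjusted p = 0.0249), Tnfsf8 (1.60, adjusted p = 0.00477) and Tnfsf11 (2.08, adjusted p = 0.000363), of which Tnfsf11, the gene of RANKL, was named after its value was seen. The call of Lta was lost without vehicle unstimulated replicate 1 or 2 and without Compound 10 unstimulated replicate 2 (edgeR adjusted p up to 0.22).

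**Figure D5:**
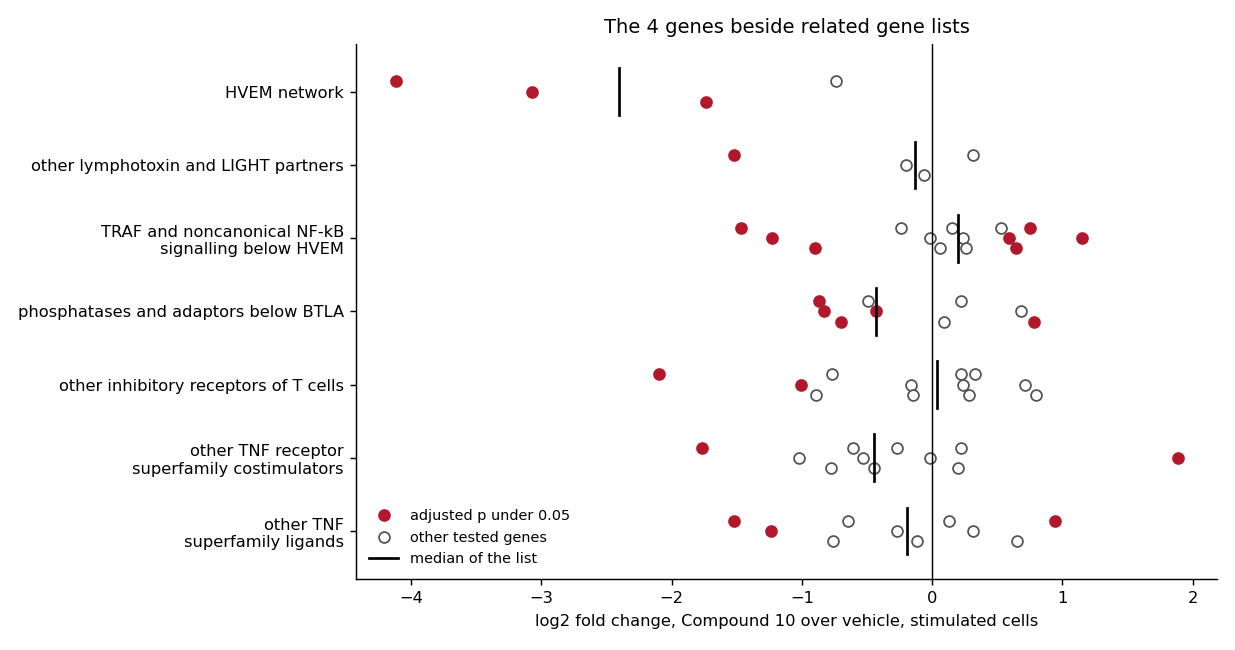
Log2 fold change of Compound 10 over vehicle in stimulated cells for the 4 genes (top row) and 6 related lists, with called genes filled, other tested genes open and the median of each list as a line. The medians of the other lists lie between -0.45 and 0.20, whereas the 4 genes, chosen for their loss of induction, have a median of -2.41.

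The genes whose level went most nearly with that of each member were taken by the Pearson correlation of log2 CPM over the 10 libraries, which fall into 4 groups. For Btla they were Arhgef3 (0.988), Rgs3 (0.984), the costimulatory receptor gene Icos (0.980), Arfrp1 (0.980) and Il2rb (0.979), a subunit of the interleukin receptors for IL-2 and IL-15. For Tnfsf14 they were Gramd1b (0.989), Icos (0.988), Gfod1 (0.988), Rgs3 (0.988) and Tnfrsf9 (0.987). Icos and Rgs3 stood in both lists, and Btla and Tnfsf14 correlated at 0.973 with each other. For Cd160 they were the DNA methyltransferase gene Dnmt3a (0.992), Utp6 (0.988), Nckap1 (0.987), Syncrip (0.985) and Dkc1 (0.981), none of them shared with the other members. The 5 genes had their highest mean in vehicle stimulated cells, and Nckap1 is an example, with 6.11 CPM in Compound 10 stimulated, 71.2 in vehicle stimulated, 4 in Compound 10 unstimulated and 4.49 in vehicle unstimulated cells. Cd160 correlated at 0.821 with Tnfsf14 and 0.751 with Btla.

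For Tnfrsf14 the nearest gene, Ttc28, reached 0.888, and the correlation of Tnfrsf14 with the other members was 0.143 to 0.346. Without TMM scaling the correlation of Tnfrsf14 was -0.153 with Btla, -0.155 with Tnfsf14 and 0.170 with Cd160. Such values describe libraries that share groups and scaling, and without the TMM factors 3 of the 5 nearest genes of Btla, 2 of those of Tnfsf14, 1 of those of Cd160 and none of those of Tnfrsf14 were again among the nearest 5.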

How the data were processed

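RNA was measured in 10 libraries of sorted mouse T cells, made from total RNA with a Clontech SMART-seq kit per the labels' protocols, which does not mark the strand. Cutadapt, kallisto and the build mm10 are named in the submitters' processing notes. Neither their versions nor the annotation is given in the sources used here. The authors deposited estimated counts and TPM per transcript, with transcript lengths, per the file headers. kallisto shares reads among compatible transcripts.

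Transcripts were matched to GENCODE M21 by Ensembl identifier (108214 of 109617). The 1403 others held 0.507% to 0.671% of a library's counts and were left out. Summing the deposited estimated counts by gene gave values that were rounded, and the deposited TPM were summed likewise. Counts were fitted with edgeR 4.0.16 in R 4.3.3, with all 10 libraries in 1 fit and 1 coefficient per group, TMM factors and filterByExpr by group. Contrasts were tested by the quasi-likelihood F test with Benjamini-Hochberg adjustment over 14417 genes, called at 0.05. The SE is the estimate over the square root of F, which understates the error of genes with few counts in a group. Levels are CPM with TMM factors, mean ± SD. The method was tested on simulated data. No library repeated another: within groups, chi-square over its degrees of freedom was at least 13.3.

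The 4 genes and the lists were chosen with earlier results of these data known. Of each list, up to 4 genes with the smallest adjusted p for Compound 10 in stimulated cells are named, with all 6 of the other LIGHT and lymphotoxin partners, called neighbours within 100 kb, and the 5 genes nearest to each member by Pearson correlation among genes whose average log2 CPM reached 2. The plan gave members an adjusted p in unstimulated cells. It is left out because loss of induction depends on those levels. Alternatives were other scaling factors, no filter, protein-coding transcripts only, DESeq2 1.42.0, blocks by replicate number or by run of sample indices, only the contrasted groups, and leaving out each library.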

Additional observations from a re-analysis of the deposited data

Results flagged for a closer look

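The effect of Compound 10 differed between stimulated and unstimulated cells, by the interaction term of the fit. For Btla the stimulated effect minus the unstimulated effect was -3.39 on the log2 scale, for Cd160 -3.95 and for Tnfsf14 -5.78. These genes were chosen for this difference, so it has no p-value.

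Among genes of the related lists the difference was tested by edgeR. It was -2.64 for Tnfrsf9 (adjusted p = 0.00132), -2.44 for Vsir (adjusted p = 0.0027), -2.25 for Tnfsf8 (adjusted p = 0.00429), -2.20 for Tnfsf11 (adjusted p = 0.00215) and -1.96 for Cd5 (adjusted p = 0.00449), and these 5 calls were kept in each of the 10 fits that left out a library. It was -1.43 for Nfkb1 (edgeR adjusted p = 0.022), -1.11 for Fasl (adjusted p = 0.0319) and -1.08 for Tnfrsf25 (adjusted p = 0.0409), of which the calls were lost in 5, 6 and 8 of those fits, with adjusted p of up to 0.101, 0.178 and 0.186. For Nfkb1 these were the fits without Compound 10 unstimulated replicate 2, without either vehicle stimulated library and without Compound 10 stimulated replicate 1 or 2, and for Fasl also the fit without vehicle unstimulated replicate 2. For Tnfrsf25 the call was kept only without vehicle unstimulated replicate 3 or Compound 10 stimulated replicate 3. Cd5 and Tnfsf11 were named after their values were seen. Neither was called for Compound 10 in stimulated cells, and both were called higher with it in unstimulated cells. In stimulated cells Tnfsf11 had 103 ± 9.52 CPM with Compound 10 and 112 ± 21.6 CPM under vehicle (log2 -0.12, edgeR adjusted p = 0.693). Cd5 had 204 ± 13 and 227 ± 10.9 CPM (log2 -0.16, edgeR adjusted p = 0.65). The same held for the calls of Tnfsf8.

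Slc35a5, at 65609 bases from Btla, had an interaction of the opposite sign, 1.72 (edgeR adjusted p = 0.0125), and its call was lost without vehicle stimulated replicate 1 (adjusted p = 0.0823). Atg3, which lies between them, had an interaction of -0.08 (edgeR adjusted p = 0.905).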

How the results depend on the processing

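For the 4 genes, 20 values of a gene in a comparison were recomputed under 18 or 19 alternative settings each. All were refits of these same 10 libraries or of part of them. Of the 375 recomputed values 367 kept the sign, and the 8 others concerned Tnfrsf14 and Cd160 values that had not been called. Btla, Cd160 and Tnfsf14 kept their direction in all 168 recomputed values for stimulation under vehicle, Compound 10 in stimulated cells and the interaction. Since these genes were chosen for their loss of induction in the same libraries, that outcome was nearly fixed in advance and adds no support. For Compound 10 in stimulated cells, alternatives that kept all libraries gave -1.77 to -1.59 for Btla, -4.25 to -3.98 for Cd160 and -3.23 to -2.94 for Tnfsf14.

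Counts of called genes moved more. Leaving out each library in turn gave 2347 to 4370 genes for stimulation with Compound 10 (3816 with all libraries), 3568 to 5769 for stimulation under vehicle (5617), 1589 to 3919 for Compound 10 in stimulated cells (3350), 325 to 1335 in unstimulated cells (1215) and 191 to 1332 for the interaction (956). The lowest count of the third came without vehicle stimulated replicate 1, with 1722 without replicate 2. Without scaling, 6029 genes were called for stimulation with Compound 10 (810 higher, 5219 lower) and 7812 under vehicle (1202 higher, 6610 lower), and the interaction had 527 higher and 314 lower, against 368 and 588. With upper-quartile factors the interaction had 494 higher and 476 lower, and Compound 10 in stimulated cells 2090 higher and 1528 lower, against 1502 and 1848. With no filter 1448 genes were called for the interaction. DESeq2 called 1870 genes in unstimulated cells and 1649 for the interaction, and a fit of only the contrasted groups called 122 genes in unstimulated cells and gave Tnfsf14 no value there. The cause of these differences was not tested.

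Pairing was looked at by correlating, between libraries of different groups, the deviations of log2 CPM from the group mean. Same-numbered libraries had correlations of -0.279 to 0.331. Libraries of 1 run of sample indices had -0.0516 to 0.464, with 0.279 and 0.464 for the 2 pairs of unstimulated libraries. In a group of 2 libraries the deviations are mirror images of each other, which forces signs. These values therefore cannot settle whether replicate numbers or runs pair the libraries. A block by replicate number called 1504 genes for the interaction, and a block by run of sample indices 2167, with 2403 in unstimulated cells, against 956 and 1215 without a block. Under these blocks the interaction ranged from -3.26 to -3.11 for Btla, from -4.07 to -3.97 for Cd160 and from -6.06 to -5.81 for Tnfsf14. Tnfrsf1a, not called for Compound 10 in stimulated cells (-0.06), had the opposite sign with upper-quartile factors (0.07), without scaling (0.05), with the block by run (0.05) and without vehicle stimulated replicate 1 (0.06), with -0.16 to 0.06 when libraries were left out.

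The spread between libraries limits Tnfrsf14, for example 4.38 and 1.64 CPM in vehicle stimulated cells. Depth limits Tnfsf14 in unstimulated cells, with 17 counts in the Compound 10 group and 3 in the vehicle group.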
